A study of Oryza sativa with 10 samples.

Results

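RSOsPR10 (Os12g0555000), RPR10b (Os12g0555200) and PBZ1 (Os12g0555500, also called OsPR10a) are 3 rice genes for pathogenesis-related class 10 (PR-10) proteins, taken here by identifier from the 37727 loci of the count tables. Their identifiers lie close together on chromosome 12, among 11 loci of other kinds that were looked at as neighbours. They were chosen by their read counts in the flag leaf, which had been seen to be higher under green manure than under chemical fertilizer, so that contrast is described for them without a test.

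PR-10 proteins are small intracellular proteins with the fold of the birch pollen allergen Bet v 1, and several of them have ribonuclease activity or bind small hydrophobic molecules. In rice, PBZ1 was found as a gene induced by probenazole, a compound that protects against blast disease, and by the blast fungus itself, and it is widely used as a marker of the defence response. RSOsPR10 was named for its presence in roots and is induced there by drought, salt and jasmonate. RPR10b is a close relative of PBZ1, with a less well known role.

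Polyadenylated RNA was sequenced from the rice cultivar Nijinokirameki, wild type in every sample, grown in paddy fields in 2024 and sampled 5 days after flowering. Chemical fertilizer (CF) plants received N, PO4 and K at 56, 176 and 56 kg per ha, and green manure (GM) plants grew on soil into which a hairy vetch (Vicia villosa) cover crop had been plowed, with no chemical fertilizer. There were 2 endosperm libraries and 3 flag leaf libraries for each treatment, 10 in all. Each endosperm library pooled spikelets of a single plant, dissected away from the embryo. The labels do not say which plants gave the leaf libraries or whether plots were repeated, so p-values measure the spread between these samples, which may be partly technical, and the field plot and the treatment cannot be told apart.

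Unique exon reads summed to between 12200510 and 25827356 per library, and each GM leaf library (12500336 to 15933394) was shallower than each CF leaf library (18540688 to 25827356). Levels below are library-size-scaled counts (CPM) after TMM scaling over the 10 libraries. They are not divided by gene length, so a level is compared between libraries for the same gene and not between genes. The 8 endosperm markers summed to 39192 to 60196 CPM in the endosperm libraries and to 141 to 201 CPM in leaf libraries. Among them GluB1_2 was at 0 in both CF endosperm libraries and at most 0.118 CPM in the GM endosperm libraries. The 10 leaf markers summed to 57002 to 69825 CPM in leaf and to 2527 to 4054 CPM in endosperm, and Lhcb1.1 and RbcS1 among them were higher in endosperm. Of the 3 root markers, RCc3 had no reads in any library and RCc2 had none in leaf, whereas LSI1 lay at 7.44 to 12.4 CPM in leaf. RSOsPR10 was thus at 52.4 CPM or more in leaf libraries in which those 2 root genes were at 0.

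In the flag leaf PBZ1 was the member with the most reads, from 10081 to 14136 per library. Its level was 785, 601 and 553 CPM in the CF libraries and 997, 1036 and 940 CPM in the GM libraries. The lowest GM library was 1.197 times the highest CF library, so the treatments did not overlap. The group means were 647 ± 122 CPM under CF and 991 ± 48.2 CPM under GM (SD, n = 3 each).

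RSOsPR10 had 79.4, 64.0 and 52.4 CPM in the CF leaf libraries and 141, 150.3 and 124 CPM in the GM leaf libraries. The gap between treatments was wider than for PBZ1, with the lowest GM library at 1.57 times the highest CF library. The means were 65.3 ± 13.5 CPM under CF and 139 ± 13.1 CPM under GM (SD, n = 3 each). In bulk tissue, fewer cells with the transcript and less of it per cell cannot be told apart, here and in each comparison that follows.

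RPR10b had 61.3, 51.9 and 42.9 CPM in the CF leaf libraries and 104, 100.02 and 94.2 CPM in the GM leaf libraries. Again the treatments were separate, the lowest GM library being 1.54 times the highest CF library. Its means were 52.1 ± 9.19 CPM under CF and 99.4 ± 4.98 CPM under GM (SD, n = 3 each). For all 3 genes CF replicate 1 was the highest CF library and CF replicate 3 the lowest, and GM replicate 3 was the lowest GM library for each of them.

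The ratio of the GM mean to the CF mean in leaf was 2.12 for RSOsPR10, 1.91 for RPR10b and 1.53 for PBZ1. The fitted log2 differences were 1.097 (SE 0.13), 0.94 (SE 0.11) and 0.63 (SE 0.12). All 3 genes lay higher in every GM than in every CF leaf library, as did 11.7% of the 20208 genes tested in leaf, and nothing is read from that count because the contrast was used in choosing them. Thinning the leaf libraries to equal depth gave 1.09, 0.92 and 0.61. With any 1 leaf library left out, the difference stayed between 0.96 and 1.26 for RSOsPR10, between 0.82 and 1.07 for RPR10b and between 0.52 and 0.78 for PBZ1.

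**Figure D1:**
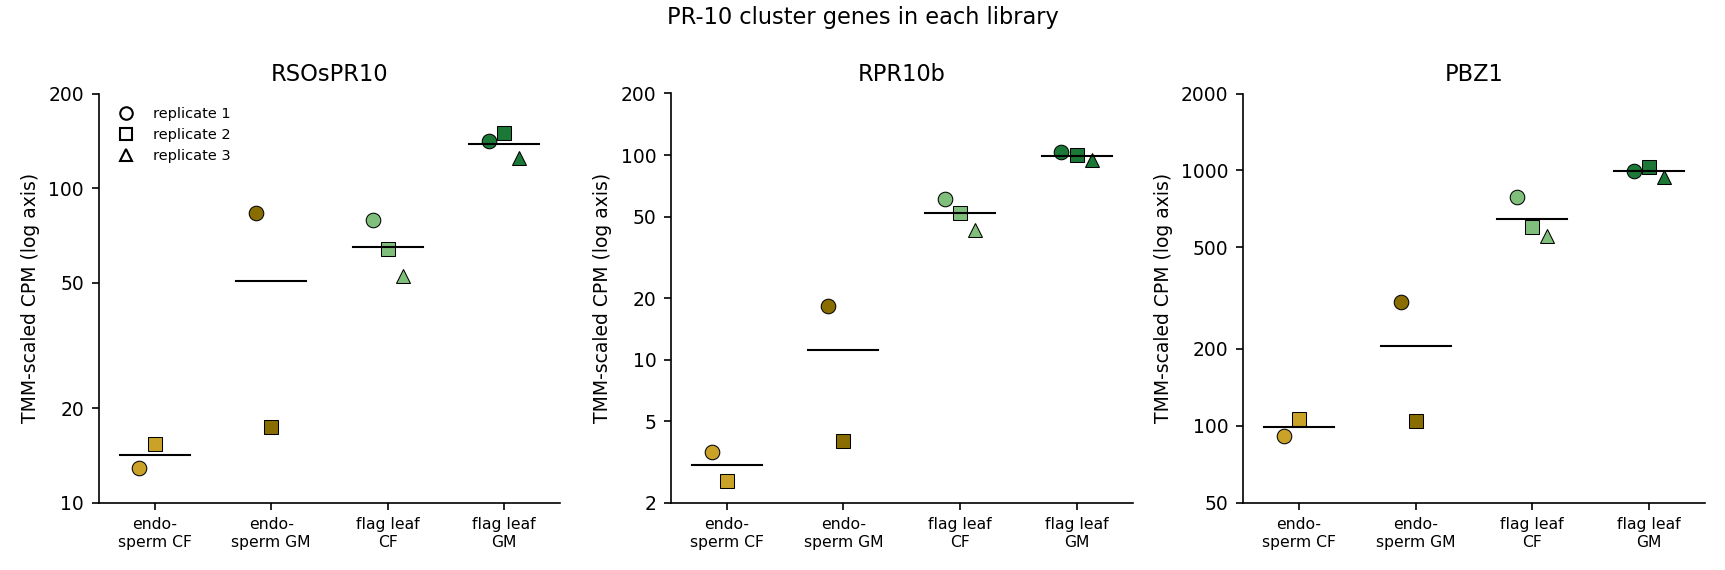
TMM-scaled CPM (log axis, different range in each panel) of RSOsPR10, RPR10b and PBZ1 in each library, by tissue and treatment; symbols are libraries and lines are group means. In leaf the CF and GM libraries are separate for each gene, and in endosperm GM replicate 1 lies above the other 3 libraries, at 83.7, 18.4 and 305 CPM.

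The endosperm libraries have to be read with 1 library apart from the others. GM replicate 1 held 4.79 times the RSOsPR10 level of GM replicate 2, 4.57 times its RPR10b level and 2.93 times its PBZ1 level. Among 23094 genes tested, 0.762% were at least 2-fold higher in GM replicate 1 than in GM replicate 2 on the log2(CPM + 1) scale and 0.191% at least 2-fold lower. On that scale the difference was 2.20 for RSOsPR10, 1.95 for RPR10b and 1.54 for PBZ1, and they ranked 20, 32 and 62 of all genes tested. The CF libraries lay closer to each other, at ratios of 0.837, 1.38 and 0.863 for the same genes, and 0.329% of genes tested were at least 2-fold higher and 0.0779% lower in CF replicate 1 than in CF replicate 2.

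RSOsPR10 had 12.9 and 15.4 CPM in the CF endosperm libraries and 83.7 and 17.5 CPM in the GM endosperm libraries. The GM libraries were both above the CF libraries, GM replicate 2 at 1.24 times the CF mean and GM replicate 1 at 5.92 times. At 83.7 CPM, GM replicate 1 also exceeded each of the 3 CF leaf libraries.

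RPR10b had the fewest reads of the 3 genes in endosperm, 74 and 37 in the CF libraries and 467 and 86 in the GM libraries. These reads corresponded to 3.53 and 2.55 CPM under CF and to 18.4 and 4.02 CPM under GM. GM replicate 2 stood at 1.32 times and GM replicate 1 at 6.04 times the CF mean.

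PBZ1 had 91.5 and 106 CPM in the CF endosperm libraries and 305 and 104 CPM in the GM endosperm libraries. The treatments overlapped for this gene, because GM replicate 2 lay between the CF libraries. GM replicate 1 stood at 3.09 times the CF mean.

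None of the 3 genes was called between GM and CF in endosperm, where 1.26% of the 23094 genes tested were called, 0.0303% as higher and 1.23% as lower under GM. By edgeR's quasi-likelihood test with Benjamini-Hochberg adjustment over all genes, RSOsPR10 had a log2 difference of 1.83 (SE 1.12, adjusted p = 0.602). RPR10b had 1.85 (SE 1.11, adjusted p = 0.592) and PBZ1 had 1.02 (SE 0.74, adjusted p = 0.651). Both GM libraries lay above both CF libraries for RSOsPR10 and RPR10b, which held for 26.6% of genes tested.

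Without GM replicate 1 the endosperm differences were 0.29 (SE 0.18, adjusted p = 0.519) for RSOsPR10, 0.36 (SE 0.32, adjusted p = 0.693) for RPR10b and 0.06 (SE 0.15, adjusted p = 0.923) for PBZ1. Without GM replicate 2 they were 2.54, 2.54 and 1.59, with adjusted p of 6.8e-64, 1.97e-27 and 1.16e-23 from the same test. In each of these fits the lone GM library is assumed to vary as the CF libraries did. With no filter on low counts all 3 genes passed the threshold at 1.83, 1.85 and 1.03 (adjusted p = 3.67e-45, 6.4e-19 and 1.61e-14).

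Marker levels in GM replicate 1 were as follows. The leaf markers summed to 2527 CPM, the lowest of the 4 endosperm libraries, the endosperm markers to 39192 CPM, also the lowest, and the embryo and aleurone markers to 529 CPM against 466 CPM in GM replicate 2 and 972 and 998 CPM in the CF libraries. The part of these marker levels in the PR-10 values was not tested.

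**Figure D2:**
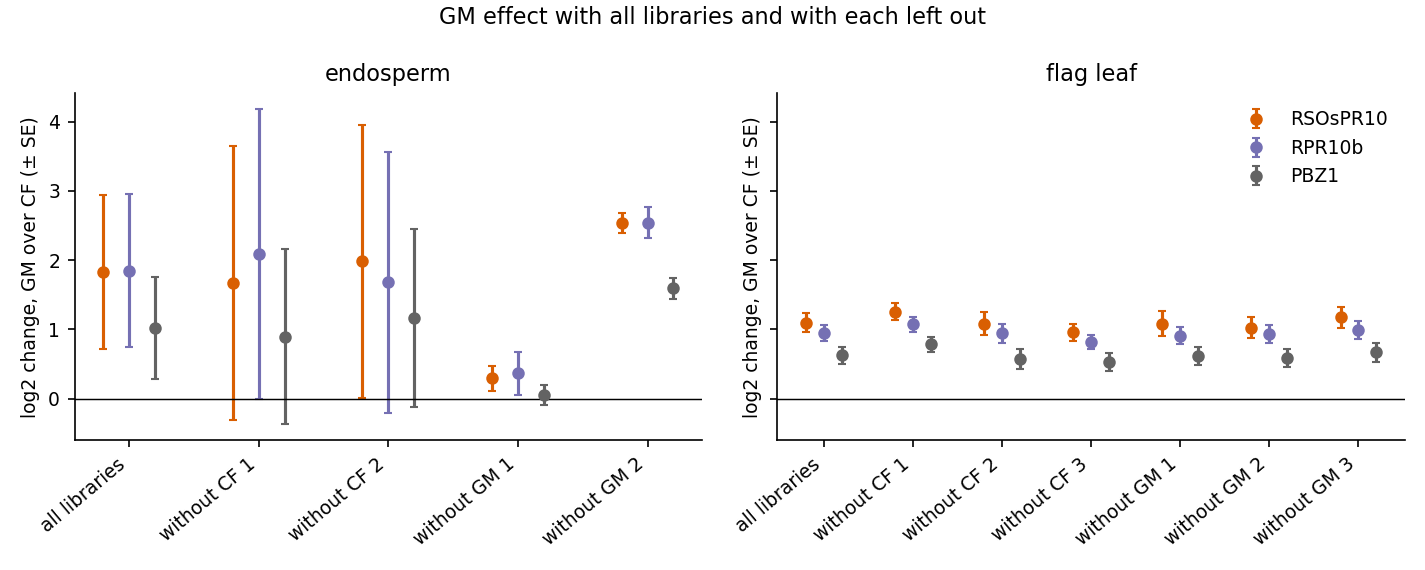
Log2 change of GM over CF (points, with SE as bars) for RSOsPR10, RPR10b and PBZ1 with all libraries of a tissue and with each left out. In endosperm the values run from 0.06 to 2.54 depending on which GM library is left out, and in leaf they stay between 0.52 and 1.26.

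Several other defence genes shared the high value in GM replicate 1. Of 23 tested genes for other pathogenesis-related (PR) proteins, 8 were at least 2-fold higher in GM replicate 1 than in GM replicate 2 and 3 were at least 2-fold lower. Over all endosperm genes tested the shares were 0.762% and 0.191%. The median log2 difference between the GM libraries was 0.06 for this list, 0.26 for the signalling genes below and 0.00 over all genes tested. The chitinase gene C10728 (Os01g0660200), whose product cuts fungal cell wall chitin, had 3.53 and 1.38 CPM under CF and 72.7 and 3.78 CPM under GM. OsPAL1 (Os02g0627100), for a phenylalanine ammonia-lyase at the entry to phenylpropanoid synthesis, had 2.48 and 0.898 CPM under CF and 11.96 and 0.327 CPM under GM. Of 57 tested signalling genes, 7 were at least 2-fold higher in GM replicate 1 and none was 2-fold lower. Between the CF libraries 4 signalling genes were at least 2-fold higher in CF replicate 1 and none was 2-fold lower, and no gene of the PR list passed that fold in either direction. Over all genes tested 0.329% were higher and 0.0779% lower in CF replicate 1 by that fold. WRKY45 (Os05g0322900), a transcription factor of the salicylate pathway on which probenazole-type protection depends, stood at 13.6 CPM in GM replicate 1 against 3.22 CPM in GM replicate 2 and 7.68 and 4.005 CPM under CF. These genes were picked for their difference between the GM libraries, so the values are a description.

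Between tissues, each of the 3 genes was lower in endosperm than in leaf under CF. The leaf mean was 4.62 times the endosperm mean for RSOsPR10, 17.1 times for RPR10b and 6.55 times for PBZ1. In 1 fit of all 4 groups by edgeR's quasi-likelihood test, the endosperm minus leaf log2 differences were -2.21 (SE 0.66, adjusted p = 0.0182) for RSOsPR10, -4.06 (SE 0.65, adjusted p = 0.000899) for RPR10b and -2.71 (SE 0.45, adjusted p = 0.000726) for PBZ1. These calls are common in a comparison of tissues, where 83.1% of the 25035 genes tested were called, 45% as higher and 38.1% as lower in endosperm. For RSOsPR10 the call was lost without CF endosperm replicate 1 (-2.08, SE 0.96) and without CF endosperm replicate 2 (-2.33, SE 0.95). The groups share 1 estimate of the spread in this fit, and the CF endosperm libraries lay close, at 12.9 and 15.4 CPM. Without GM endosperm replicate 1 or 2, neither of which is in this contrast, the value stayed at -2.21 and the SE fell to 0.17.

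Under GM the leaf mean was 2.74 times the endosperm mean for RSOsPR10, 8.89 times for RPR10b and 4.85 times for PBZ1. RPR10b (-3.12, SE 0.54, adjusted p = 0.00137) and PBZ1 (-2.28, SE 0.43, adjusted p = 0.00166) were called lower in endosperm by the same test, where 82.3% of genes were called, 44.6% as higher and 37.7% as lower. RSOsPR10, at -1.44 (SE 0.59, adjusted p = 0.0586), was not. Without GM endosperm replicate 1 its difference was -2.98 (adjusted p = 5.96e-08), and without GM endosperm replicate 2 it was -0.72 (adjusted p = 0.00358).

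The order of the group means was therefore the same for the 3 genes: CF endosperm, GM endosperm, CF leaf and GM leaf, from low to high. The first 2 groups in that order were not called different for any of them. GM endosperm and CF leaf overlapped for RSOsPR10, through GM replicate 1. For RPR10b and PBZ1 even the lowest leaf library was 2.34 and 1.82 times the highest endosperm library.

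The 3 genes did not keep a constant ratio to each other. PBZ1 gave most of their summed reads in every library, and its share in leaf was 84.7 ± 0.746% under CF and 80.7 ± 0.432% under GM (SD, n = 3 each). RSOsPR10 took 8.53 ± 0.424% under CF and 11.3 ± 0.477% under GM in leaf, and RPR10b 6.83 ± 0.359% and 8.10 ± 0.304%. The treatments did not overlap in leaf for any of these shares, which follow from the unequal differences given above and are a description.

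In the CF endosperm libraries RPR10b made up 2.67 ± 0.857% and RSOsPR10 12.2 ± 0.341% (SD, n = 2), so RPR10b had a smaller and RSOsPR10 a larger share than in CF leaf. GM endosperm replicate 1 had the largest RSOsPR10 share of all 10 libraries, 20.6% (95% Wilson interval 19.8 to 21.4%), against 13.9% in GM replicate 2. The interval covers counting error only.

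**Figure D3:**
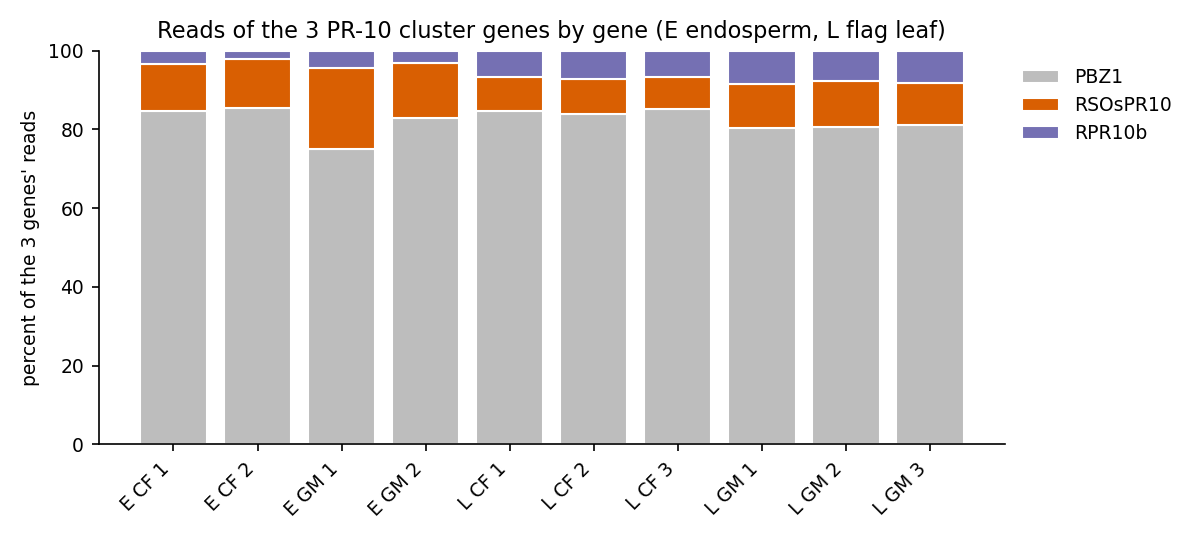
Percent of the summed reads of the 3 genes that came from PBZ1, RSOsPR10 and RPR10b in each library (E endosperm, L flag leaf, with treatment and replicate); reads are not scaled by gene length. PBZ1 holds 83.8 to 85.3% in the CF leaf libraries and 80.3 to 81.1% in the GM leaf libraries, and 74.9% in GM endosperm replicate 1.

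Counts near a cluster of similar genes carry a limit of their own. Only uniquely assigned reads were deposited, so reads that match more than 1 PR-10 copy may be missing from or shared among these genes, by an amount the files do not give. The libraries are directional, but the strand setting used in counting is not given in the sources used here, so reads of a gene and of an antisense transcript may not be separated.

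The deposited annotation names 8 further loci of the PR-10 and Bet v I family. In leaf 5 of them were tested and PR-10c (Os12g0555300), a pseudogene between RPR10b and PBZ1 in the order of identifiers, was called higher under GM. It had 4.17, 2.74 and 2.48 CPM in the CF leaf libraries and 5.24, 5.67 and 6.29 CPM in the GM leaf libraries, with no overlap. Its log2 change was 0.90 (SE 0.21, adjusted p = 0.0422, edgeR's quasi-likelihood test), where 2.94% of the 20208 leaf genes tested were called in either direction. The call was lost without CF replicate 2, CF replicate 3, GM replicate 2 or GM replicate 3 (adjusted p = 0.162, 0.202, 0.0841 and 0.145). Whether reads were divided between this locus and the 3 genes was not tested.

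In endosperm 4 of the 8 loci were tested and none was called by edgeR, DESeq2 or limma-voom. With these tools in turn, 0, 1 and 1 of them had an unadjusted p under 0.05. How many of all endosperm genes passed that unadjusted threshold was not counted, so nothing is read from these numbers. JIOsPR10 (Os03g0300400), named as jasmonate inducible, had 18.4 and 10.4 CPM under CF and 37.2 and 11.8 CPM under GM, again with GM replicate 1 highest. Its log2 difference was 0.73 (SE 0.85, adjusted p = 0.781, edgeR's quasi-likelihood test). Without GM replicate 1 it was -0.32 (adjusted p = 0.502), and without GM replicate 2 it was 1.32 (adjusted p = 2.2e-13).

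Some family members had a tissue order opposite to that of the 3 genes. JIOsPR10 was higher in endosperm than in leaf, by a log2 difference of 3.10 (SE 0.83, adjusted p = 0.0111) under CF and 3.04 (SE 0.79, adjusted p = 0.00974) under GM in edgeR's quasi-likelihood test. Its leaf levels were 0.944, 2.03 and 2.06 CPM under CF and 6.20, 2.54 and 0.636 CPM under GM, which overlapped. MLP423 (Os04g0465600), annotated as a major latex protein, had 1906 and 1628 CPM in CF endosperm, 1526 and 1343 CPM in GM endosperm and no reads in leaf. That made it at least 5126-fold higher in endosperm, taking the lowest endosperm library against a floor of 3 reads in a leaf library (0.262 CPM). OsBetvI (Os08g0374000) was the reverse, at 11.6 to 15.3 CPM in CF leaf and 9.61 to 11.8 CPM in GM leaf, with at most 2 reads in an endosperm library. Of the 6 family loci tested between tissues, 2 were higher and 2 lower in endosperm under CF, and 2 higher and 4 lower under GM. Such calls are common, since 83.1% of all genes tested were called under CF and 82.3% under GM.

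Proteins of other PR classes, which include secreted chitinases, glucanases and thaumatin-like proteins, were listed as 42 loci by their annotation. In leaf 22 were tested, and 4 rose and none fell under GM. Their median log2 difference was 0.95, against 0.00 over all leaf genes tested, of which 2.47% rose and 0.47% fell. Oschib1 (Os10g0416500), a class III chitinase, rose by 1.28 (SE 0.18, adjusted p = 0.00854, edgeR's quasi-likelihood test), and PR1A (Os07g0129200), a secreted PR-1 protein, by 1.12 (SE 0.18, adjusted p = 0.0125). The thaumatin-like genes OsPR5_4 (Os12g0628600) and OsLP (Os03g0663400) rose by 1.09 (SE 0.20, adjusted p = 0.0417) and 1.22 (SE 0.29, adjusted p = 0.0447) in the same test. OsPR5_4 had 112, 91.8 and 65.3 CPM in the CF and 207, 207 and 153 CPM in the GM leaf libraries. CF replicate 3 and GM replicate 3 were lowest in their groups, as for the 3 PR-10 genes. For Oschib1 CF replicate 3 was also lowest, but GM replicate 1 was the lowest GM library, at 11.9 CPM against 19.5 and 15.8 CPM. The count of risers in the list ran from 0, with CF replicate 2 left out, to 5, with GM replicate 1 left out, while the count over all leaf genes went from 499 to 35 and to 729 in the same fits. OsPR5_4 also lost its call without GM replicate 1 (adjusted p = 0.183) or GM replicate 2 (0.188), and OsLP kept it only without GM replicate 2.

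In endosperm 23 of those PR loci were tested and none was called by edgeR, DESeq2 or limma-voom. With these tools in turn, 3, 5 and 3 of them had an unadjusted p under 0.05. The share of all endosperm genes at that threshold was not computed, so these counts have no background beside them. The median log2 difference of the 23 loci was 0.54, against 0.00 over all endosperm genes tested. The smallest adjusted p belonged to OsPR1#022 (Os02g0786900), a PR-1 family gene, at a log2 difference of -0.42 (SE 0.10, adjusted p = 0.0816, edgeR's quasi-likelihood test). The list median was 0.62 without GM replicate 2, with 25 loci tested, and 0.26 without GM replicate 1, with 23 tested. Over all genes tested it was -0.004 and -0.006 in the same fits. Each of these fits has 1 GM library, and a locus can pass the count filter through that library alone. Between tissues 8 of 30 tested were higher and 14 lower in endosperm under CF, and 9 higher and 13 lower under GM, beside 45% higher and 38.1% lower of all genes under CF and 44.6% and 37.7% under GM.

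Genes of salicylate, jasmonate and chitin signalling, the pathways through which PR-10 genes are known to be induced, were listed as 75 loci. In leaf 56 were tested, and 5 rose and none fell, with a median log2 difference of 0.09. Over all leaf genes tested 2.47% rose and 0.47% fell, with a median of 0.00. CEBIP (Os03g0133400), the receptor protein that binds chitin fragments at the cell surface, had 18.8, 16.3 and 14.6 CPM under CF and 37.4, 36.3 and 31.1 CPM under GM. It rose by 1.08 (SE 0.11, adjusted p = 0.00236, edgeR's quasi-likelihood test) and kept the call whichever leaf library was left out, at an adjusted p of at most 0.0263. The defence transcription factor WRKY71 (Os02g0181300) rose by 0.65 (SE 0.10, adjusted p = 0.0116) and PAD4 (Os11g0195500), a lipase-like defence regulator, by 0.48 (SE 0.08, adjusted p = 0.0159) in that test. The other risers were WRKY53 (Os05g0343400), by 0.44, and OsMSRMK2 (Os03g0285800), the MAP kinase also called MPK5, by 0.87. Leaving out CF replicate 2 took the number of signalling genes that rose to 1, and leaving out GM replicate 1 took it to 8, as the share of all leaf genes that rose went to 0.172% and to 3.52%. PAD4 and WRKY53 were also not called without CF replicate 3 (adjusted p = 0.0958 and 0.113), and OsMSRMK2 was called in leave-out fits only without GM replicate 1.

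In endosperm 57 signalling loci were tested, and none rose and 2 fell, with a median log2 difference of -0.11. Over all endosperm genes tested, falls also outnumbered rises, at 1.23% against 0.0303%, with a median of 0.00. The genes that fell were OsERF#057 (Os07g0227600), an ethylene response factor, at -0.83 (SE 0.14, adjusted p = 0.0104, edgeR's quasi-likelihood test), and SPH (Os04g0447100), at -0.55 (SE 0.12, adjusted p = 0.0494). OsERF#057 lost the call without CF replicate 1 (adjusted p = 0.0992), and SPH kept it only without GM replicate 1. SPH was called by edgeR alone, whereas DESeq2 and limma-voom both called OsERF#057 and DESeq2 also called OsPAL_1 (Os02g0626100). The median of the signalling loci depended on the GM library used, at -0.35 without GM replicate 1 (58 tested) and 0.01 without GM replicate 2 (60 tested). Over all genes it was -0.006 and -0.004 in the same fits. Between tissues 12 of 60 tested were higher and 30 lower in endosperm under CF, and 10 higher and 38 lower under GM. The shares over all genes were 45% higher and 38.1% lower under CF and 44.6% and 37.7% under GM.

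**Figure D4:**
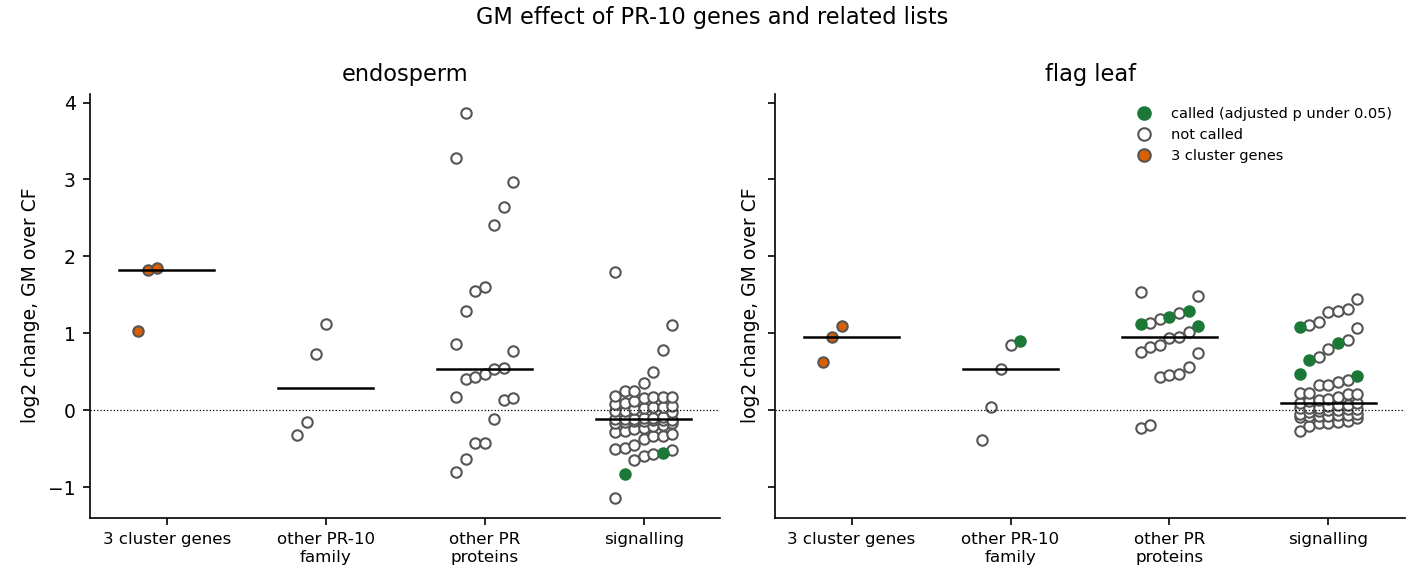
Log2 change of GM over CF in endosperm and leaf for the 3 PR-10 genes (orange, no call shown), other PR-10 family loci, other PR proteins and signalling genes; each point is a tested gene, filled green where called, and lines are medians. In leaf the other PR proteins have a median of 0.95 with 4 called, and in endosperm their median is 0.54 with none called.

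The loci next to the 3 genes on chromosome 12 were looked at in the same way. Of the 11 non-PR-10 neighbours, 10 were tested in endosperm and 8 in leaf, and none was called by edgeR, DESeq2 or limma-voom. With 1.26% of all endosperm genes and 2.94% of all leaf genes called by edgeR, a count of 0 among so few loci is near the background. At an unadjusted p under 0.05 there were 3 in endosperm and 0 in leaf with each tool. The share of all genes at that unadjusted threshold was not computed, so nothing is read from these counts. Os12g0555400, similar to raffinose synthase and placed between PR-10c and PBZ1 in identifier order, had a log2 difference of -0.24 (SE 0.19) in leaf and 0.00 (SE 0.36) in endosperm.

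Profiles were compared by the root-mean-square difference of log2(CPM + 1), each gene centred on its own mean, and a smaller value means a closer match. Over the 6 leaf libraries and 14382 genes, the closest to RSOsPR10 were PR1A (0.0813), CEBIP (0.0866), OsBDG1 (0.0952), OsPR5_4 (0.0975) and Os11g0648400 (0.0999), with RPR10b the next at 0.100. The closest to RPR10b were CEBIP (0.0812), PR1A (0.0853), Os10g0536450 (0.0892), Os11g0648400 (0.0947) and ABCG43 (0.0992), again followed by the other gene of the pair. PBZ1 was less close to both, ranking 52 for RSOsPR10 (0.238) and 25 for RPR10b (0.163) among the 14382 genes. For PBZ1, in turn, RPR10b ranked 183 and RSOsPR10 ranked 1026. Its own closest genes in leaf were Os03g0412400 (0.0694), Os01g0693300 (0.0698), Os06g0297400 (0.0701), the chitinase gene RCB4 (0.0803) and Os07g0208000 (0.0821).

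Over all 10 libraries and 17668 genes, where the tissue difference and GM endosperm replicate 1 weigh most, the order changed. The gene closest to PBZ1 was OsWAK85 (Os09g0471800), for a wall-associated receptor kinase, at 0.179, followed by Os02g0584800 (0.186), OsPUB40 (0.207), Os08g0526400 (0.234) and MDR4 (0.242). OsWAK85 had 5.25 and 4.76 CPM in CF endosperm, 16.0 and 6.26 CPM in GM endosperm and 37.6 to 68.1 CPM in leaf. RSOsPR10 was matched best by Os11g0236932 (0.281), Oschib1 (0.337), Os10g0491400 (0.347), the lignin pathway gene 4CL5 (0.366) and OsPUB40 (0.370). PBZ1 was 8th for it, at 0.418. RPR10b was matched best by Os03g0412400 (0.335), Os01g0111700 (0.337), OsGLR1.3 (0.344), OsUCL33 (0.348) and OsWRKY24 (0.363), and RSOsPR10 ranked 938 for it. The libraries share scaling and tissue, so these distances describe these 10 libraries only.

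**Figure D5:**
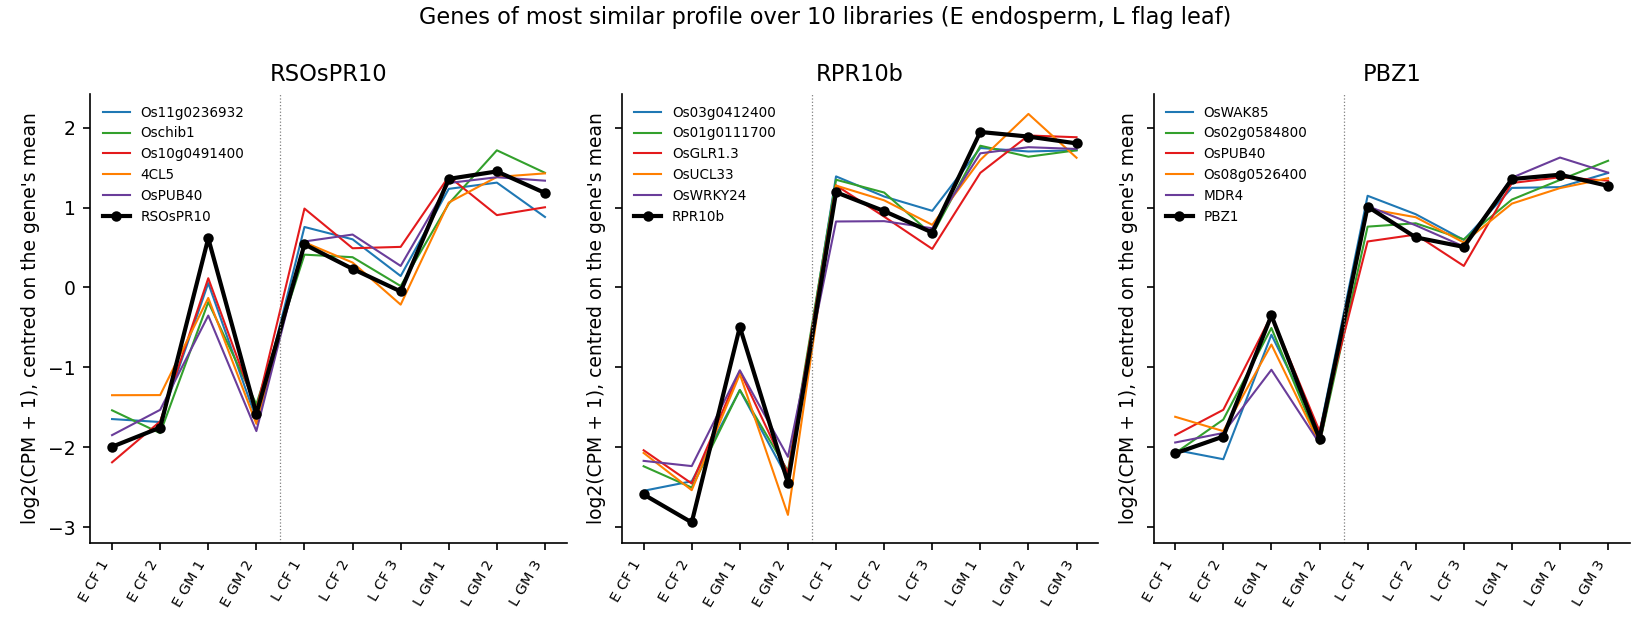
Log2(CPM + 1), centred on each gene's mean, in the 10 libraries (E endosperm, L flag leaf) for RSOsPR10, RPR10b and PBZ1 (black) and the 5 genes closest to each (colours); lines join libraries only to guide the eye. Each of the 3 genes is higher in GM endosperm replicate 1 than in the other 3 endosperm libraries, and PBZ1 has the closest neighbours, from 0.179 to 0.242.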

How the data were processed

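The authors deposited raw counts of unique exon reads per locus, in 1 table for endosperm and 1 for flag leaf, per the file headers and labels. The build was IRGSP 1.0 per the submitters' processing notes, and no aligner or counter is named in those sources. Gene names came from the deposited annotation. No gene lengths, coordinates or sequences were used here.

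GM and CF were compared within each tissue with edgeR 4.0.16 in R 4.3.3: filterByExpr with a minimum count of 10, TMM scaling, robust quasi-likelihood F tests, Benjamini-Hochberg adjustment over all genes tested and a threshold of 0.05. Endosperm and leaf were compared in 1 fit of 10 libraries. SE is the absolute log2 change over the square root of F. Levels are CPM computed from the counts with TMM factors over all libraries, so ratios of means differ slightly from fitted changes. The fits were also run on simulated counts with a common spread for all genes and no library set apart. Those runs do not bear on the spread between the GM endosperm libraries. Alternatives were RLE and upper-quartile scaling, 2 other filters, DESeq2 1.42.0, limma 3.58.1 with voom, a replicate block, a joint fit, thinned leaf libraries and leaving out each library; list counts without each library were added after seeing the data.

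The members and lists were chosen with earlier results of these data known. Named genes were the 3 members, family loci called in a comparison or highest in level, up to 3 of smallest p per list and comparison (leaf and endosperm lists also give other called genes), and the 5 closest profiles among genes of at least 5 CPM. C10728, OsPAL1, WRKY45 and Os12g0555400 were named after their values were seen. Between-tissue list genes were given as counts only. No 2 libraries held identical values.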

Additional observations from a re-analysis of the deposited data

How the results depend on the processing

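No difference of a member reversed under any alternative run. In endosperm, the differences of RSOsPR10, RPR10b and PBZ1 passed the threshold with no filter on low counts (1.83, 1.85 and 1.03). That came with SEs of 0.125, 0.194 and 0.123, which do not measure the gap between the GM libraries. Leaving out each library gave 0.29 to 2.54, 0.36 to 2.54 and 0.056 to 1.59. The endosperm count of called genes, 292, was 1370 with no filter, 168 with a replicate block and 135 to 944 with a library left out. The leaf count, 594, was 987 with no filter, 335 in the joint fit of 10 libraries and 40 to 933 with a library left out. RSOsPR10 between tissues under CF gave -2.38 to -2.08 with a library left out; under GM it passed the threshold with DESeq2 (-1.46) and limma-voom (-1.82), and gave -2.98 to -0.72 with a library left out. The causes were not tested. For the other PR list in leaf, DESeq2 called 8 genes and limma-voom 3, against 4. Over all leaf genes these tools called 832 and 596, against 594. Pairing by replicate number was not seen in same-number correlations (-0.0119 in endosperm and -0.0106 to 0.0372 in leaf), which cannot exclude it. With the replicate block no member call changed. In leaf that block gave 713 called genes and an SE of 0.092 for RSOsPR10, against 0.134 without it. Upper-quartile scaling moved the median of all genes between tissues by 0.163 under CF and 0.159 under GM. With 2 endosperm libraries per treatment, 1 library decides the size of the endosperm differences.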
